A study of Mus musculus with 5 samples.

Results

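Cells carrying the transcript of Slc38a5 among Inha-high granulosa cells of the postnatal mouse ovary are described here, and they are called the selected cells. A cell was selected when it had at least 1000 detected genes, a mitochondrial share under 15%, at least 1 UMI (unique molecular identifier, the count of a captured transcript) of Slc38a5 and at least 1 UMI of at least 2 of the 5 genes Dnajb13, Nap1l5, Otor, Tns4 and Psd. It also had at least 5 UMIs of Inha, at most 1 UMI of Cyp19a1, and none of Ube2c or Dcn. The rule found 1396 of the 48163 deposited cells, or of the 39967 cells that met the limits on genes and mitochondrial share. These 10 genes chose the cells, so their levels below are a description and support nothing.

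The study asked how the first follicles to grow differ from those that grow later. Untreated C57BL6/J mice gave ovaries at 2, 3, 4, 5 and 6 wk, which were dissociated with trypsin, live cells were sorted by exclusion of SYTOX Orange, and 1 library of single cells was made at each age, the number of mice behind it not being given in the sources used here. The libraries held 9471, 9253, 11077, 7779 and 10583 cells and 124938004, 93438618, 117666094, 107071492 and 144609431 UMIs. Between 18 and 35 cell barcodes were shared by any pair of libraries, which is 0.216% to 0.399% of the smaller library. With 1 library per age no age had a replicate, and no test over the ages was run. The selected cells were not tested against other cells of the same libraries because their own counts chose them. Every interval below is a 95% interval of counting error that holds no variation between mice.

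Granulosa cells surround the oocyte. In a follicle with an antrum, the cumulus cells stay around the oocyte, take up amino acids that they pass to it through gap junctions and break down glucose on its behalf. The mural cells line the follicle wall, respond to follicle-stimulating hormone and make estradiol with aromatase, the product of Cyp19a1. Inhibin is a dimer of the alpha subunit, encoded by Inha, with 1 of the beta subunits encoded by Inhba and Inhbb, whereas dimers of beta subunits are activins, and follistatin (Fst) binds activin.

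The 6 genes that gave the cells their name differ in function. Slc38a5 (chrX:8271133-8280179, plus strand, GRCm38) encodes a transporter of glutamine and other neutral amino acids. Dnajb13 (chr7:100501716-100514960, minus) encodes a co-chaperone known from cilia and sperm tails, and Nap1l5 (chr6:58905233-58907076, minus) an imprinted nucleosome assembly protein. Otor (chr2:143078473-143081713, plus) encodes a secreted protein known from the inner ear, Tns4 (chr11:99065678-99089306, minus) a tensin of cell adhesions, and Psd (chr19:46312087-46327156, minus) an activator of ARF6. The 250 bases before the start of Otor and Nap1l5 in the RefSeq table of GRCm38.p6 are printed because both are genes of the rule and their windows hold the letters TATAAA, here in capitals, on the plus strand of the gene.
Otor, chr2:143078143-143078392: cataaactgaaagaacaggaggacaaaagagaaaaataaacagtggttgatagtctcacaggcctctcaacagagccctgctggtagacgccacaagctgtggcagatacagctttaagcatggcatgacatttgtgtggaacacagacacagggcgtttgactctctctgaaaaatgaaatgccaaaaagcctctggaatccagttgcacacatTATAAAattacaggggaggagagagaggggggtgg
Nap1l5, chr6:58907127-58907376: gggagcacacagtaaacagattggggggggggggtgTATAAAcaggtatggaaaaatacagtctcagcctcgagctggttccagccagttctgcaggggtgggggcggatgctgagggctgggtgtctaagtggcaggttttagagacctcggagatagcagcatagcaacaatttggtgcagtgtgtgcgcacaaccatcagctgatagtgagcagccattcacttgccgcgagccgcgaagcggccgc
In the Otor window the letters begin 35 bases before the start, and in the Nap1l5 window 214 bases before it. These are the starts of the RefSeq table, which lie upstream of the GENCODE starts in the positions given above for both genes. TATAAA was found on either strand in 12.4% of the 32851 windows of this length in the table. The Otor window has 2 CG dinucleotides and the Nap1l5 window 10, with a median of 6 over all windows. Of the other letters searched on both strands, AAGGTCA (in 4.08% of all windows) was found in the window of Dnajb13, AAGGCCA (5.24%) in 1 of the 2 windows of Psd, and TGACGTCA (1.55%) in none of the windows of Slc38a5, Dnajb13, Nap1l5, Otor and Psd. A match is a description of these letters and no evidence of binding.

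The selected cells were rare at 2 wk and, as a share of all cells, most frequent at 4 wk. They numbered 14, 165, 592, 250 and 375 at 2, 3, 4, 5 and 6 wk, and values are given in this order of ages throughout. Their share of the cells within the limits was 0.181% (0.0987 to 0.303, exact binomial interval), 2.15% (1.84 to 2.50), 6.46% (5.96 to 6.98), 3.81% (3.36 to 4.30) and 4.25% (3.84 to 4.69). At 4 wk it was 35.8 times that at 2 wk (interval 21.1 to 65.8), and no interval at 3 to 6 wk overlapped that at 2 wk. The size of this ratio moved with the limits, to 15.7 with at least 1 of the 5 markers, to 119 with at least 3 of them and to 249 with each cell thinned to 8000 UMIs, and it was 41.9 with a mitochondrial limit of 10%. Of all Inha-high cells, which met the same limits on Inha, Cyp19a1, Ube2c and Dcn, they made up 0.749%, 7.02%, 18.8%, 13.5% and 17.9%. The shares at 5 and 6 wk had overlapping intervals against all cells and separate ones of 11.99 to 15.2% and 16.3 to 19.6% against Inha-high cells. Against Inha-high cells the interval at 4 wk, 17.4 to 20.2%, overlapped that at 6 wk, and the order of these ages turned with at least 1 of the 5 markers (29.5% at 4 wk and 31.1% at 6 wk) and with a mitochondrial limit of 10% (19.7% and 21.0%). A pair of limits bears on these shares. At 2 wk, of the 14 cells, 10 had exactly 1 UMI of Slc38a5 and 12 had the minimum of 2 markers, and Cell Ranger 3.1.0 made the 2, 3 and 4 wk counts and 6.0.1 those of 5 and 6 wk, so that software and age cannot be told apart between these sets of libraries.

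**Figure D1:**
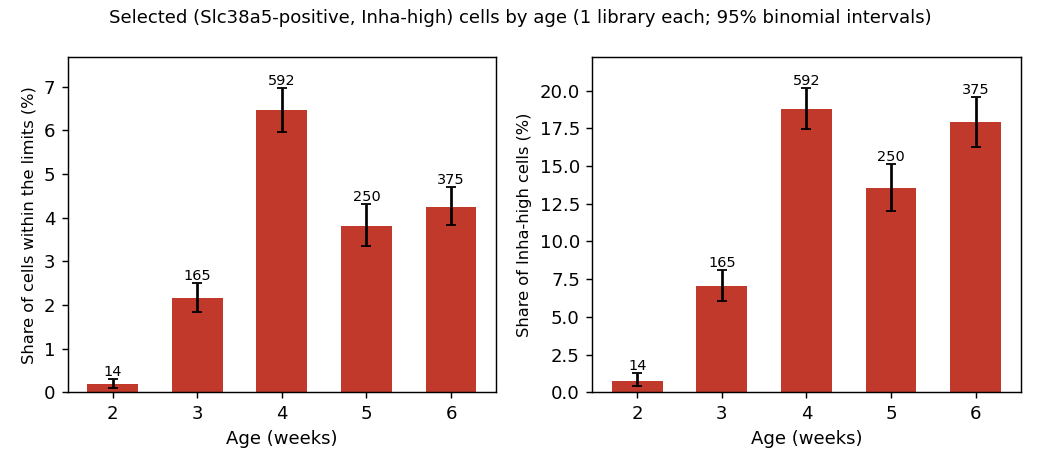
Share of the selected cells at each age (x axis, weeks), as a percent of all cells within the limits (left) and of Inha-high cells (right), with exact 95% binomial intervals and 1 library per age. The share goes from 0.181% of all cells at 2 wk to 6.46% at 4 wk and stays above 2% at each later age.

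Depth differed between the groups compared. The selected cells held medians of 19972, 16540, 15817.5, 21967 and 21635 UMIs per cell, against 16773, 12344, 11318, 15493 and 15805 in the other Inha-high cells. A cell with more UMIs is more likely to show the rare transcripts that the rule asks for, and scaling of levels does not undo this selection. Each level is a CPM, with exact Poisson intervals. It is the sum of a gene's UMIs in a group and library, divided by all UMIs of the same group and library and scaled to 1000000. The totals of the selected cells were 288209, 2849019, 9666069, 5547610 and 8341193 UMIs. Scrublet called 21 of the 1396 selected cells doublets (1.504%), against 1.25% of the other Inha-high cells. The median mitochondrial share was 8.29%, 4.598%, 5.49%, 6.21% and 7.45% in the selected cells, lower at each age than the 8.80%, 6.84%, 6.36%, 7.57% and 8.44% of the others.

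The genes of the rule were uneven among the selected cells. Slc38a5 was at 72.9, 223, 430, 502 and 390 CPM, against 4.99, 11.7, 67.9, 96.2 and 90.2 CPM in the other Inha-high cells, of which 6.52% to 29.0% had a UMI of Slc38a5 too but too few markers. Nap1l5 was at 118, 823, 448, 659 and 660 CPM and Dnajb13 at 48.6, 111, 121, 90.5 and 86.4 CPM. These 2 genes carried most of the selection, since Nap1l5 was seen in 71.4% to 96.0% and Dnajb13 in 64.3% to 80.6% of the cells at each age. Otor was at 34.7, 57.6, 34.9, 22.7 and 22.1 CPM. Psd stood out at 3 wk, with 6.94, 150, 34.7, 27.6 and 39.4 CPM, the first of these from 2 UMIs. Tns4 was scarce, with 13.9, 1.75, 14.8, 5.95 and 7.55 CPM, and was seen in 5 of 165 cells at 3 wk. In all, 754 cells had 2 of the 5 markers, 456 had 3, 170 had 4 and 16 had all of them.

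Blood cells, chosen by Ptprc and Laptm5 and by fewer than 5 UMIs of Inha, show what unrelated cells carry. Of 310 such cells, 3.23% had a UMI of Slc38a5, 5.81% of Dnajb13, 5.16% of Nap1l5, 0.645% of Otor, 6.77% of Tns4 and 9.35% of Psd, at a median of 8735.5 UMIs against 17891 in the selected cells. The Tns4 share of the selected cells at 3 wk (3.03%) lay below that of blood cells and above the 1.05% of the other Inha-high cells of that age, so no reading is given for it. Dcn-positive cells, Dcn being a proteoglycan gene of mesenchymal cells, held 23.3 to 34.6 CPM of Slc38a5 and 13.9 to 37.7 CPM of Psd, against 0 to 7.53 CPM and 3.76 to 28.3 CPM in blood cells, so the levels of these 2 cell groups overlapped for Psd and not for Slc38a5.

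Values of cells just inside and just outside the limits of the rule were pooled over the ages. Cells with 2 of the 5 markers had 574 CPM of Inhba (754 cells), and cells with 1 of them, not selected, 465 CPM (960 cells), while those with none had 92.5 CPM (914 cells). By age the first 2 of these groups held 89.4, 645, 166, 723 and 885 CPM and 106, 226, 86.2, 545 and 871 CPM. The 304 selected cells with 1 UMI of Slc38a5 had 737 CPM of Inhba and the 602 cells that met every other limit but had no Slc38a5 had 689 CPM. These pooled values hide opposite orders by age, since the former held 133, 1059, 123, 957 and 1392 CPM and the latter 188, 556, 122, 483 and 1715 CPM. The 109 selected cells with 1 UMI of Cyp19a1 had 2955 CPM of Inhba, against 4237 CPM in 33 cells with 2 UMIs, which the rule leaves out. None of the latter came from 2 wk, and at 3 wk the order was the other way, with 2087 against 1726 CPM. At 4, 5 and 6 wk the former held 512, 3001 and 3939 CPM and the latter 1761, 5930 and 5310 CPM. Only 2 selected cells had 5 or 6 UMIs of Inha.

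Granulosa genes that the rule did not use are given beside Dcn-positive cells. Those cells had at least 3 UMIs of Dcn and fewer than 5 of Inha, so Inha and Dcn set the groups apart beforehand. The levels are therefore a description and no independent check of the granulosa label. Amh, a hormone made by granulosa cells, was at 316, 493, 560, 145 and 169 CPM in the selected cells and at 1.89 to 14.5 CPM in Dcn-positive cells, and Fst at 509 to 1009 CPM against 4.39 to 12.6 CPM. Foxl2, the granulosa identity factor, did not separate them, with 61.0 to 264 CPM in the selected and 98.4 to 174 CPM in Dcn-positive cells. A gene was called higher or lower in the selected cells when its CPM was at least 1.5-fold higher, or at least 1.5-fold lower, than in the other Inha-high cells in each of the 5 libraries. By that count, 110 of 12007 genes with at least 200 UMIs were higher (0.916% of genes tested) and 387 were lower (3.22%). The 2 directions are not alike in depth, since a gene with no UMI in the 14 cells of 2 wk counts there as lower and cannot count as higher. Of the 387 lower genes, 194 had no UMI at 2 wk, and 98 had counting intervals below 1 in each of the 5 libraries, whereas 49 of the 110 higher genes had intervals above 1 in each. Over 3 to 6 wk alone, 265 of the 387 and 103 of the 110 had such intervals in each library. Over the 3 to 6 wk libraries alone, which leaves out the 14 cells of 2 wk, 243 of 11694 genes were higher (2.08%) and 610 lower (5.22%). Scaled by the median ratio of all genes instead of total UMIs, the calls in 5 libraries were 161 higher and 329 lower. With mitochondrial and ribosomal protein genes left out of the totals they were 111 and 384. With the comparison cells held to the range of UMIs that most selected cells had, they were 100 and 281.

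Of 12 cumulus genes tested, none was called over 5 libraries, 1 (Ldha) was higher over 3 to 6 wk, and the median ratio of the list was 1.47 beside 0.9403 for all genes tested. Slc38a3, the alanine and histidine transporter of cumulus cells, was at 31.2, 29.1, 57.5, 71.9 and 79.1 CPM in the selected cells and at 9.73, 30.9, 29.3, 33.1 and 47.1 CPM in the other Inha-high cells. The 2 groups were alike at 3 wk, with a ratio of 0.943 (0.744 to 1.18), and differed by 1.68-fold to 3.21-fold at the other ages. Vpreb3-positive cells, with at least 2 UMIs of Vpreb3 and not selected, held as much Slc38a3 from 4 wk on (55.5, 71.1 and 82.7 CPM). Amh, which cumulus cells keep, had ratios of 0.542, 0.571, 1.42, 0.675 and 0.701 and so was lower in the selected cells in 4 of 5 libraries. Gja1, the main connexin of granulosa cells, was at 1277, 1467, 1268, 1923 and 1836 CPM, from 1.42-fold to 2.71-fold above the other Inha-high cells. Npr2, the receptor that keeps the oocyte in arrest, had ratios of 1.43, 1.18, 1.72, 1.83 and 1.71. Bmpr1b (1.12 to 2.05), Bmpr2 (0.834 to 1.85), Impdh2 (1.04 to 1.28), Pfkp (1.40 to 4.96), Sqle (0.695 to 1.51) and Cyp51 (0.372 to 1.37) gave no call.

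Of 8 genes known from mural cells, 3 were higher and 1 lower, with a median ratio of 1.02. Fshr, the receptor of follicle-stimulating hormone, was at 24.3, 16.8, 8.17, 16.2 and 22.4 CPM, against 6.92, 3.14, 3.35, 3.85 and 8.43 CPM in the other Inha-high cells. Each age showed a ratio between 2.44 and 5.37, from 7 UMIs in the selected cells at 2 wk. Hsd17b1, the enzyme that turns estrone into estradiol, was at 527, 331, 176, 525 and 648 CPM against 130, 67.4, 70.8, 151 and 272 CPM. Nppc, the peptide ligand of Npr2, was at 59.0, 78.6, 35.1, 75.9 and 183 CPM against 23.0, 15.03, 20.1, 33.6 and 95.8 CPM. Kitl, the ligand by which granulosa cells stimulate the growing oocyte, went the other way, at 163, 55.1, 30.8, 73.5 and 46.5 CPM against 249, 217, 73.6, 183 and 133 CPM. Ccnd2 (ratios 0.806 to 1.57) and Cd34 (0.340 to 2.25) gave no call. Lhcgr, the luteinizing hormone receptor, had 0, 5, 0, 36 and 6 UMIs in the selected cells and a median ratio of 0.186. Cyp11a1, given below with the theca markers, had the lowest median ratio of the mural list (0.151), with 3 wk going the other way. Neither was called. Of 3 genes of cumulus expansion that could be tested none was called, and the 8 genes of that list summed to 4.92 to 20.8 CPM, the highest from 6 UMIs. These lists do not settle whether the cells are cumulus or mural. The cumulus list had the higher median ratio, and the mural list had calls in both directions beside the low ratios of Lhcgr and Cyp11a1. No call among 12 genes is near the 0.916% of all genes. The cells are therefore named by their rule.

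Inhba, Inhbb and Fst were higher in the selected cells at each age. Inhba was at 167, 1316, 169, 806 and 1311 CPM in the selected cells and at 18.3, 56.3, 39.8, 168 and 517 CPM in the other Inha-high cells. The ratio was 9.12 (6.65 to 12.3), 23.4 (22.0 to 24.8), 4.25 (3.94 to 4.58), 4.80 (4.61 to 5.01) and 2.54 (2.48 to 2.60). The selected cells were above the others at each age, although the level at 2 and 4 wk was close to what the other cells reached at 5 wk. Inhbb was at 260, 1008, 203, 285 and 463 CPM against 172, 122, 59.97, 45.6 and 104 CPM, and the 2 groups did not overlap over the ages. Fst was at 514, 645, 509, 795 and 1009 CPM against 210, 244, 293, 204 and 404 CPM, again without overlap. Of 30 genes of the inhibin, activin, AMH and BMP pathway, these 3 were higher, 1 was lower and the median ratio was 0.876. The lower gene was Smad3, which carries activin and TGF-beta signals to the nucleus, at 31.2, 11.6, 9.21, 13.5 and 17.1 CPM against 70.8, 41.6, 19.5, 24.7 and 39.1 CPM. Bmp2 had the lowest median ratio of the list (0.424). Grem1, a BMP antagonist that cumulus cells express, had 0, 120, 12, 66 and 305 UMIs and ratios of 83.5 (47.9 to 157) at 3 wk, 1.25 (0.582 to 2.51) at 4 wk, 4.16 at 5 wk and 3.72 at 6 wk.

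**Figure D2:**
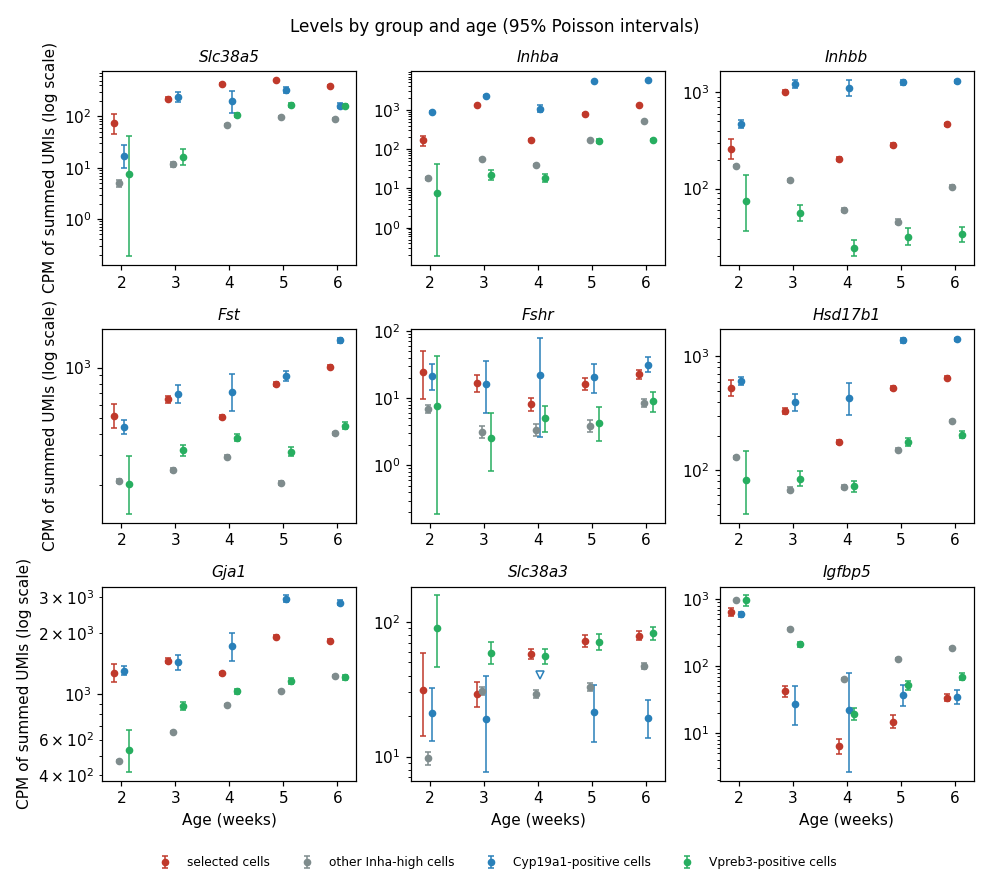
CPM of summed UMIs (log axis) against age in weeks for 9 genes in the selected cells, the other Inha-high cells, the Cyp19a1-positive cells and the Vpreb3-positive cells, with 95% Poisson intervals; the open triangle marks the upper limit where no UMI was seen. Inhba is highest in Cyp19a1-positive cells at each age, and the selected cells lie above the other Inha-high cells for Inhba, Inhbb, Fst, Fshr, Hsd17b1 and Gja1.

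By the size of the lowest of the 5 ratios, the 12 leading genes were Prrt4, Fbp1, Drd4, Lrrtm3, Rab33a, Inhba, Gm48882, Cox4i2, Kdelr3, Fshr, Trim8 and Hsd17b1. Drd4, a dopamine receptor, was at 24.3, 29.5, 8.79, 23.8 and 22.4 CPM against 7.83, 1.62, 2.02, 6.26 and 5.02 CPM. Kdelr3, a receptor that returns proteins to the endoplasmic reticulum, was at 38.2, 68.8, 31.7, 39.5 and 44.2 CPM against 6.44, 8.29, 12.8, 12.8 and 17.6 CPM. Lrrtm3, a synaptic adhesion protein, was at 6.94, 4.21, 10.7, 23.1 and 30.8 CPM against 0.695, 0.721, 3.85, 3.81 and 6.69 CPM. Trim8, a ubiquitin ligase, was at 55.5, 44.9, 65.2, 72.6 and 116 CPM against 22.4, 14.1, 23.4, 29.9 and 38.8 CPM. The selected cells were above the others at each age for all of these. At 2 wk, however, Prrt4, Fbp1 and Cox4i2 had 1 UMI and Lrrtm3 and Rab33a 2 UMIs. The counting intervals of the ratio at 2 wk included 1 for Prrt4, Fbp1, Cox4i2, Rab33a and Gm48882. Over the 3 to 6 wk libraries Prrt4 had ratios of 3.64 to 14.2, Rab33a of 3.44 to 6.15, Fbp1 of 3.36 to 4.85, Cox4i2 of 2.50 to 6.78 and Gm48882 of 2.97 to 3.19. Over the Cyp19a1-positive cells, those with at least 2 UMIs of Cyp19a1, median ratios were 0.191 for Inhba, 0.461 for Hsd17b1 and 0.568 for Prrt4. They were 0.799 for Fshr, 0.961 for Kdelr3 and 0.980 for Drd4. The other leading genes had median ratios above 1 there, from 1.33 (Rab33a) to 4.83 (Lrrtm3).

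Part of the DNA replication genes were higher in the selected cells at each age, and part of the glycolysis genes from 3 wk on. Of 20 genes of S phase, 8 were higher over 5 libraries and none lower, and over 3 to 6 wk 11 were higher. The list had a median ratio of 2.01 and summed to 1128, 1519, 1095, 884 and 869 CPM in the selected cells, against 769, 789, 558, 495 and 578 CPM in the others and 1012, 1770, 790, 652 and 897 CPM in Cyp19a1-positive cells, those with at least 2 UMIs of Cyp19a1. Mcm3, a subunit of the replicative helicase, was at 125, 198, 110, 87.1 and 82.8 CPM against 60.4, 74.6, 44.4, 34.0 and 40.2 CPM. Cdc6, which loads that helicase, had the highest median ratio of the list (3.62) and Slbp the lowest (1.13). Of 19 genes of G2 and mitosis, 3 (Ccna2, Tpx2 and Aurkb) were higher and none lower, with a median ratio of 1.83, although no cell of either group had a UMI of Ube2c. Ccnb2, a mitotic cyclin, was called higher over 3 to 6 wk and not over 5 libraries. At 3 to 6 wk it was at 53.4, 35.5, 17.1 and 15.1 CPM, against 6.99, 10.6, 5.00 and 5.66 CPM in the others. Of 10 D cyclins and CDK inhibitors none was called, between Ccnd2 (median ratio 1.34) and Cdkn1c (0.447).

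Of 20 genes of glycolysis none was called over 5 libraries, and over 3 to 6 wk 7 of 19 were higher (Aldoc, Tpi1, Gapdh, Pgk1, Eno1, Pkm and Ldha) and 1 was lower (Hk1). Ldha, lactate dehydrogenase, was at 291, 598, 583, 550 and 483 CPM against 251, 236, 335, 311 and 262 CPM. The 2 groups were alike at 2 wk, where the ratio was 1.16 (0.924 to 1.44), and separate at 3 to 6 wk, where it was 1.74 to 2.54. The list summed to 4497, 7180, 6028, 5280 and 4830 CPM against 4831, 3935, 3882, 3835 and 3392 CPM in the others and 5311, 7213, 6367, 4916 and 5313 CPM in the Cyp19a1-positive cells. Of 23 genes of cholesterol synthesis and uptake, 1 was higher (Mvk, mevalonate kinase, ratios 1.60 to 3.25) and 1 lower (Hsd17b7), with a median ratio of 1.08. Of 26 amino acid transporters other than Slc38a5, none was called over 5 libraries, over 3 to 6 wk Slc6a15, a transporter of branched amino acids and proline, was higher and Slc1a3 lower, and the list summed to 1083, 961, 999, 1146 and 1025 CPM against 1002, 932, 964, 1152 and 975 CPM. Of 18 genes of the amino acid response and serine synthesis none was called in either set of libraries, with a median ratio of 1.05 and a range of medians from 0.864 (Ddit3) to 1.61 (Shmt2).

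**Figure D3:**
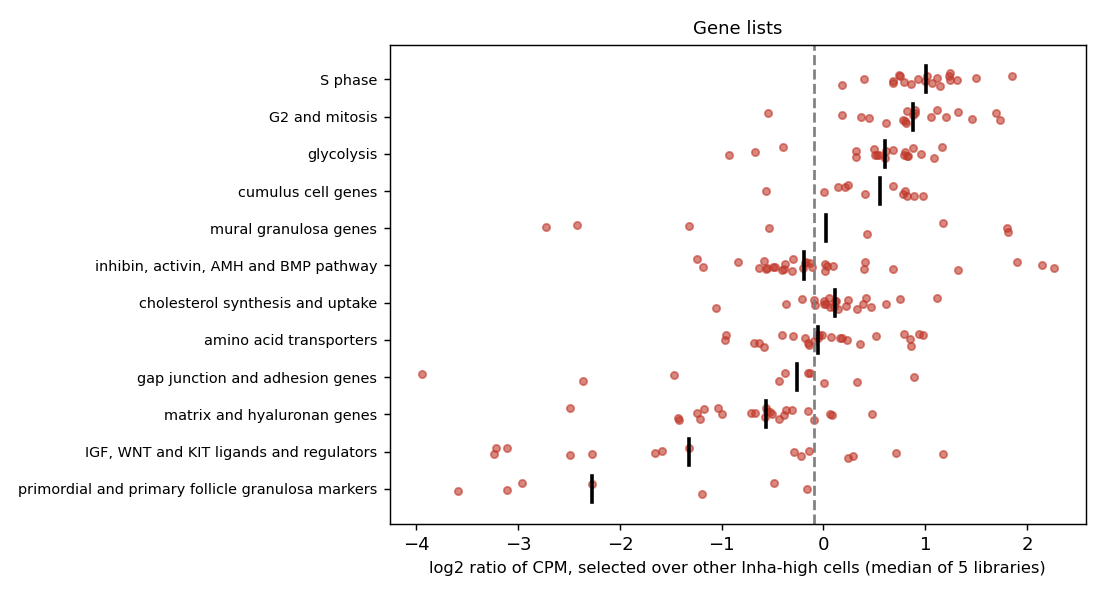
Each point is a gene of the list named at the left, placed at the log2 of its median ratio of CPM over the 5 libraries, selected over other Inha-high cells, with a black bar at the median of the list and a dashed line at the median of all genes tested. The lists of S phase (median ratio 2.01), G2 and mitosis (1.83) and glycolysis (1.52) lie to the right, and the list of primordial and primary follicle granulosa markers (0.206) lies farthest to the left of the 12 lists plotted.

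Some markers of small follicles and some WNT and KIT genes were lower. Of 7 granulosa markers of primordial and primary follicles, 2 (Gatm and Col18a1) were lower over 5 libraries and 4 of 6 over 3 to 6 wk, with a median ratio of 0.206. Gatm, the first enzyme of creatine synthesis, was at 65.9, 9.13, 5.90, 10.5 and 18.5 CPM in the selected cells against 542, 97.8, 38.5, 81.5 and 112 CPM in the others. Col18a1, a collagen of basement membranes, was at 65.9, 17.2, 4.76, 3.79 and 9.71 CPM against 331, 208, 78.4, 70.4 and 81.6 CPM. Both genes were lower by more than 5-fold in each library. Of 15 ligands and regulators of the IGF, WNT and KIT pathways, 1 (Nppc) was higher and 4 (Wnt6, Sfrp1, Axin2 and Kitl) lower, and the median ratio was 0.401. Wnt6, a WNT ligand, was at 27.8, 4.91, 3.104, 9.37 and 6.47 CPM against 190, 86.3, 35.5, 88.2 and 60.5 CPM, without overlap. Axin2, which WNT signals induce, was at 13.9, 3.16, 0.621, 1.08 and 2.04 CPM against 35.6, 15.3, 6.60, 9.42 and 11.5 CPM. Igf1 was higher over 3 to 6 wk, at 198, 277, 169 and 162 CPM against 89.1, 169, 87.5 and 108 CPM, and lower at 2 wk, where the selected cells had 3 UMIs.

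Igfbp5, a binding protein of insulin-like growth factors, was at 652, 42.1, 6.41, 14.96 and 34.2 CPM against 962, 364, 64.9, 129 and 191 CPM. Wnt4 was at 350, 67.4, 38.5, 22.7 and 36.8 CPM against 396, 327, 162, 152 and 184 CPM. At 2 wk the ratios of these 2 genes were 0.678 and 0.884. The interval of Igfbp5 in the selected cells (562 to 753 CPM) lay below the level of the others, and that of Wnt4 (285 to 426 CPM) held it. At 3 to 6 wk the selected cells were lower by more than 4-fold for both genes. Itga6, the laminin-binding integrin subunit of granulosa cells at the basement membrane, was at 288, 45.3, 24.2, 20.0 and 35.6 CPM against 581, 356, 112, 129 and 183 CPM. Itga6 and Cald1 were the lower genes, and Hsd17b1 and Fshr the higher, among 14 genes that the study set side by side for its follicle waves, some of them picked on these libraries and so no independent evidence. Over 3 to 6 wk, Dhh (ratios 1.53 to 2.07) and Igf1 were also higher, and Wnt4, Igfbp5 and Ghr (0.308 to 0.575) also lower. Grb14 (0.958 to 3.52), Mmp11 (0.585 to 0.846), Ptgis (0.415 to 1.74), Prlr (0.286 to 2.70) and Nr5a2 (1.12 to 1.78) gave no call. Of 10 gap junction and adhesion genes Itga6 alone was called over 5 libraries, and Gja4 had the lowest median ratio (0.0647).

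The 12 genes with the lowest values, by the highest of their 5 ratios, were Sp5, Ccl3, Nrgn, Hamp2, Cdh12, Wnt11, Rcan2, Insl3, Foxa3, Trim50, Slc27a6 and Wnt6. Sp5, a transcription factor that WNT signals induce, had no UMI in any selected cell and 234 UMIs in the others, so it was at least 14.5-fold lower against a floor of 3 UMIs over the group. Most of these genes were scarce in the other cells too. Cdh12, a cadherin, was at 8.75, 10.0, 5.67, 5.04 and 7.05 CPM there, against 0, 0, 0.310, 0 and 0.719 CPM in the selected cells. Of 24 genes of matrix and hyaluronan, none was higher and 3 (Sdc4, Timp3 and Col4a2) were lower, with a median ratio of 0.678. Of 14 genes of steroid synthesis Hsd17b1 was higher and Hsd17b7 lower, with a median ratio of 0.929, and over 3 to 6 wk Star, which brings cholesterol into mitochondria, was also lower. Of 14 hormone and growth factor receptors Fshr was higher, with a median ratio of 0.894, and over 3 to 6 wk Ghr was lower. Of 19 genes of follicle remodeling and atresia none was called over 5 libraries and 3 (Ghr, Pamr1 and Pik3ip1) were lower over 3 to 6 wk. Of 20 immediate-early and heat-shock genes none was called over 5 libraries and Btg2 was lower over 3 to 6 wk, with median ratios of 0.863 and 0.846 for these 2 lists.

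Markers of other cell types were low in the selected cells but not absent. The 8 theca markers summed to 101, 200, 113, 561 and 216 CPM in the selected cells, with Mgarp the most abundant, and to 182, 144, 129, 2612 and 220 CPM in the other Inha-high cells, with Cyp11a1 the most abundant. Of the 8, Insl3 was lower and none was higher, and the median ratio was 0.171. Mgarp had the highest median ratio of the list (2.74), with ratios of 2.76, 17.4, 2.74, 0.564 and 1.38, and the sum of the list was above that of the others at 3 wk. Cyp11a1, which begins steroid synthesis, was at 3.47, 20.0, 1.34, 200 and 16.3 CPM in the selected cells and at 24.6, 5.23, 15.3, 1325 and 21.2 CPM in the others. Of the Cyp11a1 UMIs of the selected cells at 5 wk, 74.7% lay in 3 cells. The lower calls on Insl3 and Star at 5 wk move with this theca signal in the comparison group, and its part in them was not tested. The 8 stromal markers summed to 52.0, 99.0, 44.7, 33.0 and 47.2 CPM (Col1a2 the most abundant, median ratio 0.733), the 8 smooth muscle and pericyte markers to 27.8, 157, 208, 72.8 and 69.4 CPM (Acta2, 0.390) and the 8 endothelial markers to 13.9, 3.51, 17.6, 34.2 and 3.84 CPM (Ccl21a, 0.357). In the other Inha-high cells the stromal markers summed to 122, 68.9, 97.2, 91.9 and 66.9 CPM, the smooth muscle and pericyte markers to 79.8, 103, 314, 167 and 251 CPM and the endothelial markers to 10.4, 8.83, 31.5, 79.7 and 15.9 CPM. The selected cells were thus above the others at 3 wk for the stromal and smooth muscle markers. Their endothelial sum at 2 wk rested on 4 UMIs, so no difference is read from it. The 8 hematopoietic markers summed to 0, 1.75, 18.7, 4.33 and 1.68 CPM, with C1qa the most abundant and Cd3e at 0, against 5.59, 14.3, 12.1, 25.4 and 22.3 CPM in the others, which were lower than the selected cells at 4 wk alone. The 8 epithelial markers summed to 31.2, 2.81, 4.55, 3.79 and 4.20 CPM, with Lgals7 the most abundant and Muc16 at 0, against 46.5, 35.1, 24.8, 19.4 and 15.6 CPM in the others. The 8 germ cell markers summed to 0, 1.40, 2.48, 2.34 and 2.16 CPM, with Gdf9 the most abundant and Bmp15 at 0, against 1.74, 1.23, 1.69, 2.44 and 1.28 CPM. Of stromal, smooth muscle and hematopoietic markers that could be tested none was called, Cdh5 was lower among endothelial markers, Lgals7 was lower and alone testable among epithelial markers, and no germ cell marker had enough UMIs. At 2 wk, single cells weigh heavily, since all 29 UMIs of Plat and 35 of the 43 UMIs of Krt18 came from 1 of the 14 cells.

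The Cyp19a1-positive cells, which met the same limits but had at least 2 UMIs of Cyp19a1, numbered 53, 20, 6, 49 and 107. They held 874, 2285, 1076, 5332 and 5816 CPM of Inhba and 261, 804, 450, 1184 and 1101 CPM of Nap1l5. Over the 3, 5 and 6 wk libraries, 94 of 7961 genes were at least 1.5-fold higher in the selected cells (1.18%) and 79 lower (0.992%). Of the 94, 12 were among the 197 of these 7961 genes that were higher over the other Inha-high cells. Of the 79, 11 were among the 197 that were lower there. Both ratios hold the same selected cells, so they are not independent. The 805 Vpreb3-positive cells (8, 143, 312, 155 and 187) held 7.51, 22.5, 18.8, 162 and 171 CPM of Inhba. Over the 3 to 6 wk libraries, 152 of 9413 genes were higher in the selected cells than in them (1.61%) and 137 lower (1.46%). Of the 152, 99 were among the 190 of these 9413 genes that were higher over the other Inha-high cells. Of the 137, 100 were among the 280 that were lower there. The Vpreb3-positive cells are part of the other Inha-high cells, and both ratios hold the same selected cells. This overlap is therefore partly built in, and nothing is read from it. Inhbb in the selected cells lay between these groups at 3 to 6 wk, at 1008, 203, 285 and 463 CPM, with 1207, 1109, 1260 and 1288 CPM in Cyp19a1-positive and 56.2, 24.4, 31.9 and 33.6 CPM in Vpreb3-positive cells. Slc38a3 did not follow it, with 19.2, 0, 21.5 and 19.4 CPM at 3 to 6 wk in Cyp19a1-positive cells. The counts of genes over these 2 groups of cells were added after the data had been seen.

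The selected cells were not uniform. Inhba had a median per cell of 81.8, 917, 0, 65.1 and 220 CPM and an upper quartile of 237, 2517, 158, 896 and 2384 CPM, so its level differed widely between cells of 1 library. Of the selected cells, 0, 1, 149, 72 and 87 had at least 2 UMIs of Vpreb3, a surrogate light chain gene that marks a set of antral granulosa cells. Those cells held 87.9, 160 and 231 CPM of Inhba at 4, 5 and 6 wk, against 199, 1121 and 1743 CPM in the cells with at most 1 UMI. The order was reversed for Slc38a3, with 73.8, 98.4 and 95.3 CPM in the former and 51.4, 59.0 and 72.7 CPM in the latter, with separate intervals at each of these ages. The 109 cells with 1 UMI of Cyp19a1 (3, 28, 8, 25 and 45) held 403, 2087, 512, 3001 and 3939 CPM of Inhba, against 91.5, 1173, 164, 597 and 982 CPM in the cells without one. When cells with a UMI of Cyp19a1 were left out of both groups, the ratio of Inhba over the other Inha-high cells was 9.47, 24.5, 4.14, 4.45 and 2.48.

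**Figure D4:**
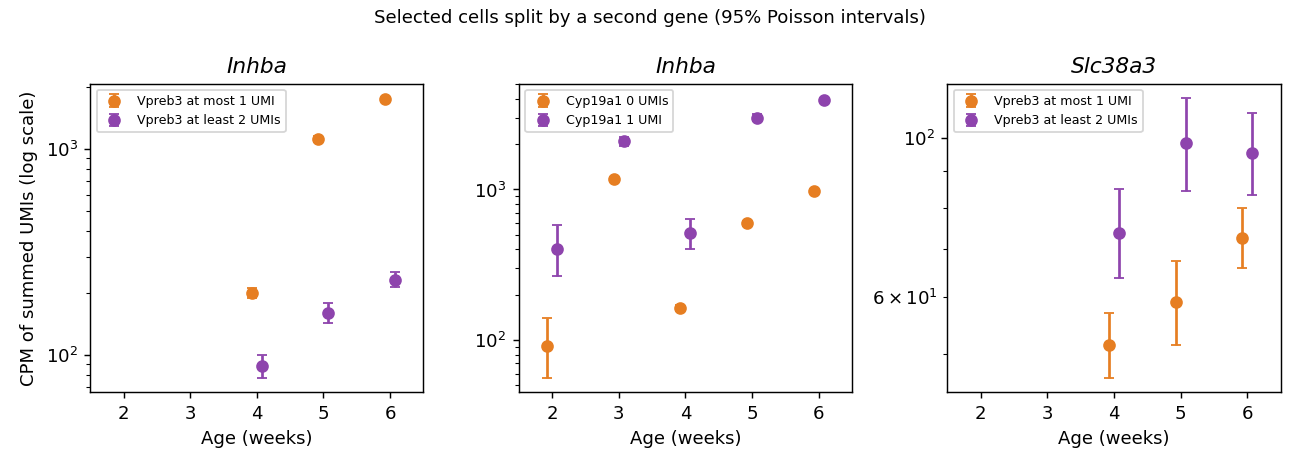
CPM of Inhba and Slc38a3 (log axis) against age in weeks within the selected cells, divided by their Vpreb3 UMIs (left and right, 4 to 6 wk) or their Cyp19a1 UMIs (middle), with 95% Poisson intervals. Cells with at least 2 UMIs of Vpreb3 lie lower for Inhba (87.9 against 199 CPM at 4 wk) and higher for Slc38a3, and cells with 1 UMI of Cyp19a1 lie higher for Inhba at each age.

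Over the ages, a gene was called when its levels at 5 and 6 wk were both at least 2-fold above, or below, those at 2 and 3 wk. Of 8542 genes with at least 200 UMIs in the selected cells, 153 were higher at the later ages (1.79%) and 19 lower (0.222%). The 2 and 3 wk counts were made with Cell Ranger 3.1.0 and those of 5 and 6 wk with 6.0.1. Software and age cannot be told apart in these calls. Of the 153, 81 had intervals that excluded 1 against both early libraries and 38 had no UMI at 2 wk, where the selected cells were 14, and of the 19, 15 had such intervals. The other Inha-high cells gave the same call for 62 of the 153 genes (40.5% of them, and 37.1% of the 167 higher in the other cells) and for 3 of the 19. With 1 library left out, so that fewer have to agree, the counts were 422 and 100 without 2 wk, 842 and 289 without 3 wk, 183 and 38 without 5 wk and 178 and 39 without 6 wk.

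The 12 leading higher genes were the globin genes Hbb-bt, Hbb-bs, Hba-a1 and Hba-a2, and Asb4, Fgd5, Cda, Fabp4, Ntn4, Itih2, Mgst2 and Trim47. The globin values rested on few cells. At 5 wk 1 cell held 3227 UMIs of Hbb-bs, or 99.5% of them, and at 6 wk 1 cell held 15, or 93.8%. Asb4, part of a ubiquitin ligase, was at 0, 0.351, 17.6, 15.7 and 18.3 CPM. Fabp4, a fatty acid binding protein, was at 0, 0.702, 7.55, 16.2 and 19.5 CPM and Itih2, which binds hyaluronan, at 0, 0.702, 9.52, 12.6 and 15.5 CPM. At 3 wk these 3 genes had 1 or 2 UMIs, with upper limits of 1.96 to 2.54 CPM, which lay below their levels at 4 to 6 wk. At 2 wk none was seen, with an upper limit of 12.8 CPM, which lay below Asb4 at 4 to 6 wk, Fabp4 at 5 and 6 wk and Itih2 at 6 wk. Grb14, an inhibitor of the insulin receptor, was at 177, 130, 858, 829 and 626 CPM in the selected cells and at 50.2, 60.8, 851, 659 and 653 CPM in the other Inha-high cells. Cald1, an actin-binding protein, was at 27.8, 24.2, 193, 162 and 139 CPM against 51.0, 50.1, 771, 459 and 468 CPM, and Mmp11, a matrix protease, at 31.2, 23.5, 151, 163 and 117 CPM. Bmp2 was at 0, 4.91, 34.2, 33.5 and 35.01 CPM and Pik3ip1, which restrains PI3 kinase, at 13.9, 11.9, 99.1, 61.5 and 75.4 CPM. Among the lists, Slc38a3, Slc38a6, Tgfbr3, Cx3cl1, Adamts5 and Itih5 were also higher at the later ages. The higher calls took in 3 of 14 of the follicle wave genes, 2 of 15 amino acid transporters and 2 of 25 of the inhibin and activin pathway, beside 1.79% of all genes. The 3 were Cald1, Grb14 and Mmp11. The study reported these as lower in antral granulosa cells of its first follicle wave, from these same libraries, so the calls are no independent evidence.

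The 12 leading lower genes were Myl9, Rhox8, Cbs, Susd4, Ctsc, Mns1, Peg3, Ackr3, Cenpe, Mdk, Nfib and Gm12216. Cbs, which turns homocysteine into cystathionine, was at 177, 180, 42.3, 48.8 and 51.4 CPM, against 54.3, 79.1, 25.6, 23.6 and 35.2 CPM in the other Inha-high cells. Susd4, a regulator of complement, was at 160, 36.5, 5.48, 10.1 and 12.3 CPM, and Nfib, a transcription factor, at 128, 66.3, 55.3, 29.6 and 13.5 CPM. Peg3, an imprinted zinc finger gene, was at 62.5, 39.0, 21.1, 14.8 and 11.03 CPM. Vcan, a large proteoglycan, was at 344, 151, 41.5, 37.7 and 70.6 CPM and was the lower gene among 18 of matrix and hyaluronan. These genes were higher at 2 and at 3 wk than at any later age, with 4 wk already near the later values for Cbs, Susd4 and Vcan. Inhba followed neither pattern, since it was high at 3, 5 and 6 wk and low at 2 and 4 wk.

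**Figure D5:**
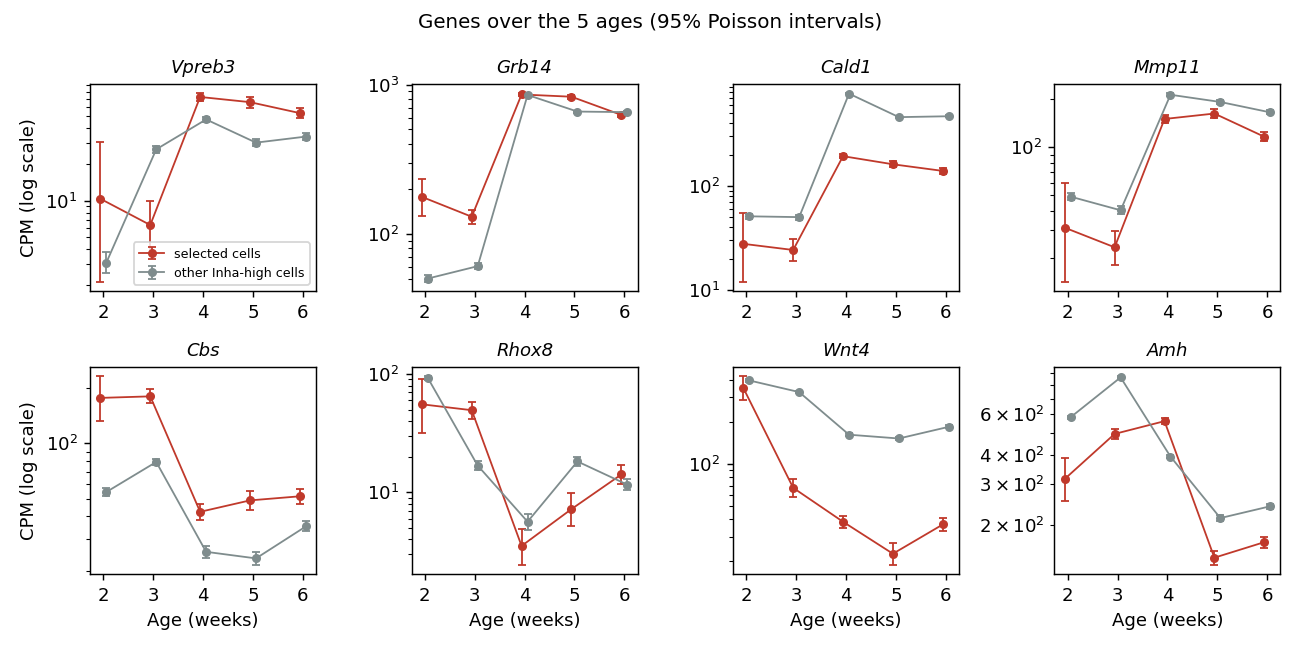
CPM (log axis) against age in weeks for 8 genes in the selected and the other Inha-high cells, with 95% Poisson intervals. Grb14, Cald1 and Mmp11 step up between 3 and 4 wk in both groups, and Cbs in the selected cells steps down from 180 CPM at 3 wk to 42.3 CPM at 4 wk.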

How the data were processed

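The authors deposited raw UMI counts per gene and cell for each library, as whole numbers without normalization. Per the labels the reads were aligned to mm10, with Cell Ranger 3.1.0 at 2, 3 and 4 wk and Cell Ranger 6.0.1 at 5 and 6 wk, and Seurat 4.1.0 was named for later steps. The selected cells, the gene lists and the limits were chosen with earlier results of these data known. The UMIs of each gene were added up per group and library and divided by the group's total (CPM). Levels carry exact Poisson intervals, shares exact binomial (Clopper-Pearson) intervals, and ratios binomial intervals given the sum of the compared counts, each at 95% and for counting error only. A fold against a group with no UMI was taken against a floor of 3 UMIs. No test was run and no p-value is given, because 1 library stands for each age and the selected cells were chosen by their own counts. Ratios between cell groups were taken within each library. The named genes are the 10 of the rule, the 12 leading genes in each direction of each comparison (with at least 200 UMIs, ribosomal, mitochondrial and rule genes left out), the genes with the highest and lowest median ratio of each of 27 lists, and the cumulus, mural and follicle wave lists. A few genes of these lists are not reported here. Genes further named because a list called them, or for what they show within the selected cells, were chosen after their values were seen. Blood cells had at least 1 UMI of Ptprc and 2 of Laptm5, and Dcn-positive cells at least 3 of Dcn. Cells of both groups also had fewer than 5 UMIs of Inha. Doublets were called with Scrublet in scanpy 1.11.5 and kept in the main values. Alternatives were cells thinned to 8000 UMIs, 1 or 3 of the 5 markers, 10 UMIs of Inha, a mitochondrial limit of 10%, no doublets, comparison cells of like depth, another scaling, minimums of 1 and 1000 UMIs per gene, and each library left out. The calculations were tested on simulated data. Gene positions are from GENCODE M21 and sequences from RefSeq (GRCm38.p6). Python 3.11.15 with numpy 2.4.6, scipy 1.17.1, pandas 2.3.3 and matplotlib 3.10.9 was used.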

Additional observations from a re-analysis of the deposited data

How the results depend on the processing

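The selected and the other Inha-high cells were compared within each of the 5 libraries, but no test over libraries was run, because the cells were chosen by their own counts. No test over the ages was run, and each age had 1 library. The spread between mice is not measured, and the 14 selected cells at 2 wk, with 288209 UMIs, limit each ratio that rests on that age. The selected cells stayed more frequent at 3, 4, 5 and 6 wk than at 2 wk under each of 8 alternatives. The ratio of their share to that at 2 wk moved to 96.9, 249, 126 and 145 with cells thinned to 8000 UMIs (2 cells left at 2 wk), to 4.96, 15.7, 11.4 and 11.5 with at least 1 of the 5 markers, and to 53.7, 119, 54.4 and 70.3 with at least 3 of them. The other 5 alternatives, 1 of which (no UMI of Cyp19a1) was chosen after seeing the data, stayed within the counting interval. The count of genes higher in the selected cells ranged from 74 to 161 over 8 alternatives, and from 127 to 243 with 1 library left out, the highest without 2 wk. The count of lower genes moved from 387 to 874 with a minimum of 1 UMI per gene and to 217 with a minimum of 1000, and ranged from 422 to 610 with 1 library left out, the highest again without 2 wk. Scaling by the median ratio shifted all genes by at most 0.11 on the log2 scale and gave 161 higher and 329 lower. The count of genes higher at the later ages moved from 153 to 97 with thinned cells, 85 with at least 3 markers and 46 with a minimum of 1000 UMIs. It ranged from 178 to 842 with 1 library left out, with 422 without 2 wk and 842 without 3 wk. The count of lower genes moved from 19 to 5 with thinned cells and to 5 with a minimum of 1000 UMIs. It ranged from 38 to 289 with 1 library left out (100 without 2 wk, 289 without 3 wk, 38 without 5 wk, 39 without 6 wk), where fewer libraries have to agree. Apart from that, the causes of these moves were not tested.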
